A study of Homo sapiens with 38 samples.

Results

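The 10 genes ENPP5, CLIC3, C1QTNF6, KRTAP2-3, IGFBP6, CRABP2, KLK6, ZNF385A, MAPRE2 and SLC46A3, out of 12627 listed genes, were picked because their transcripts were higher after silencing of VPS4B with either of the siRNA duplexes used against it. They were followed in HCT116, an established human colorectal carcinoma line, to ask whether each was higher still, similar or lower when VPS4A was silenced together with VPS4B. The 9 conditions were non-transfected cells (NT), the non-targeting duplexes siCTRL#1 (60 nM) and siCTRL#2 (the labels give no dose for it, and the study's methods only a range for its controls), siVPS4A#1, siVPS4A#2, siVPS4B#1 and siVPS4B#2, each at 30 nM with 30 nM of siCTRL#1, and the combinations siVPS4A+B#1, made of siVPS4B#1 plus siVPS4A#2, and siVPS4A+B#2, made of the remaining duplexes siVPS4B#2 and siVPS4A#1, in which each targeting duplex was at 30 nM and no siCTRL#1 was added. RNA was taken 72 h after transfection, and each condition had 4 libraries except siCTRL#1 and siVPS4A#1 with 5, labelled as biological replicates of 1 cell line. Combined silencing thus differed from either single silencing by the added targeting duplex and also by the 30 nM of siCTRL#1 that it replaced, and these cannot be told apart.

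VPS4A and VPS4B are paralogous AAA ATPases that take apart ESCRT-III filaments, the membrane-cutting polymers that act at endosomes, at the midbody of dividing cells, at the reforming nuclear envelope and at damaged membranes. Each paralog can largely stand in for the other, and loss of both stalls receptor sorting to lysosomes and the last step of cell division. The 10 genes were picked by their levels and not by function, and a shared pathway was not looked for. C1QTNF6, IGFBP6 and KLK6 encode secreted proteins, ENPP5, CLIC3 and SLC46A3 encode proteins of membranes and the endolysosomal system, CRABP2 and ZNF385A act in the cytosol and nucleus, and KRTAP2-3 and MAPRE2 encode proteins of filaments and microtubules.

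Transcripts were measured with an amplicon panel, and a level is given in RPM, the gene's reads per 1000000 of the library's reads on listed genes, scaled by the trimmed mean of M-values (TMM). Libraries held from 5090666 to 11035293 reads, except siVPS4A#1 replicate 2 with 669257. That library had 1 read of VPS4B (1.62 RPM) where the other siVPS4A#1 libraries had 21.4 to 32.1 RPM, which goes against its label, and it was left out of every value below unless named. VPS4A was 1.63 to 10.5 RPM in the siVPS4A libraries and 3.05 to 33.9 in the combined libraries, against 173 to 325 in the 13 control libraries. VPS4B was 0.133 to 1.57 RPM in all libraries that received a VPS4B duplex, against 16.3 to 38.8 in the controls, some of these values resting on 1 or 2 reads. Of 10 colorectal epithelial markers 6 were listed, with a summed level of 4363 to 8200.4 RPM, and of 10 markers of other cell types 3 were listed, with a summed level of 26.3 to 103. In bulk RNA, fewer cells that express a gene and less RNA per cell cannot be told apart.

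The genes lay on 9 chromosomes (GRCh37, GENCODE annotation). ENPP5 was at chr6:46126922-46138717, CLIC3 at chr9:139889060-139891020, C1QTNF6 at chr22:37576206-37595425, KRTAP2-3 at chr17:39215492-39216366, IGFBP6 at chr12:53491220-53496129, CRABP2 at chr1:156669398-156675608, KLK6 at chr19:51461887-51472929, ZNF385A at chr12:54762917-54785082, MAPRE2 at chr18:32556892-32723434 and SLC46A3 at chr13:29274201-29293107. IGFBP6 and MAPRE2 were on the plus strand and the others on the minus strand. Non-coding genes on the opposite strand overlap C1QTNF6, CRABP2, KLK6 and ZNF385A, and whether the counting used strand is not given in the sources used here. KRTAP2-3 has 1 exon and close relatives: its transcript matched KRTAP2-4, KRTAP2-1 and KRTAP2-2 at 86.3%, 85.0% and 84.1% of aligned bases, so its reads carry the uncertainty of a multigene family. KRTAP2-2 and KRTAP2-4 were listed beside it, with mean levels of 0.980 to 3.95 and of 0.0963 to 0.559 RPM per condition.

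The 250 bases before the annotated start were at hand for 9 of the 10 genes (RefSeq, GRCh38.p14; none for ZNF385A). They are shown for KRTAP2-3 and IGFBP6, the only members that rose in both tests of an added VPS4B duplex described below, and for ENPP5, which was lower in combined silencing than with either VPS4B duplex alone. Each reads 5′ to 3′ on the strand of the gene, with motif matches in capitals.
KRTAP2-3 (chr17:41060115-41060364, minus strand): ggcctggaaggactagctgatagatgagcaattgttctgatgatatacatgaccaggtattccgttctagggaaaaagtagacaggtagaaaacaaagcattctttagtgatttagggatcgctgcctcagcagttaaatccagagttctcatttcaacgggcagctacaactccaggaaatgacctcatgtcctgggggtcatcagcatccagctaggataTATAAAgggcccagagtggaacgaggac
IGFBP6 (chr12:53097417-53097666, plus strand): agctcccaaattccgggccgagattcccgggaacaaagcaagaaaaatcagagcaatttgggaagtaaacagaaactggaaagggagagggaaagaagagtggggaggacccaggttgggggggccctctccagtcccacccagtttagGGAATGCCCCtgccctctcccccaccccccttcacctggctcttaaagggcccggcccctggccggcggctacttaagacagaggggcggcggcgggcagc
ENPP5 (chr6:46170981-46171230, minus strand): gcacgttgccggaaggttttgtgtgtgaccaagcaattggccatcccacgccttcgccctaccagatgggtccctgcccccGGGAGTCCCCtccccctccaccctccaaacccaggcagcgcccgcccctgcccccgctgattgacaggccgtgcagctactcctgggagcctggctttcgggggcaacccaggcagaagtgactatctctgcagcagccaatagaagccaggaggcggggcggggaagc
The window of KRTAP2-3 held the TATA box letters TATAAA starting 28 bases before the start, and 10.7% of 35116 promoters hold them on either strand. The windows of IGFBP6 and ENPP5 held the NF-kB motif, starting 101 and 169 bases before the start and found on either strand of 9.96% of promoters. None of the 9 windows held the AP-1 letters TGANTCA (6.57% of promoters), and of the other members only MAPRE2 held the E-box CACGTG (6.34%).

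The members were chosen from siVPS4B#1 and siVPS4B#2 against NT and siCTRL#1, so these values describe the choice and were not tested. Against NT, all 10 genes were at least 1.5-fold higher with no overlap of libraries for siVPS4B#1 (9.69% of all genes) and 9 for siVPS4B#2 (6.23% of all genes), KLK6 being the exception. Against siCTRL#1 this was so for 7 genes with siVPS4B#1 (4.40% of all genes) and for 7 with siVPS4B#2 (1.95% of all genes). Ranked by mean log2 difference over the 4 comparisons among the 61 genes called higher in all of them, KRTAP2-3 stood at rank 2 (1.84), ENPP5 at rank 4 (1.58), CLIC3 at rank 5 (1.57), C1QTNF6 at rank 6 (1.49), CRABP2 at rank 10 (1.36), SLC46A3 at rank 11 (1.33), MAPRE2 at rank 12 (1.33), ZNF385A at rank 16 (1.18), IGFBP6 at rank 18 (1.14) and KLK6 at rank 43 (0.93). Genes outside the 10 stood between them, with VGF at rank 1 (2.25) and CASTOR1 at rank 3 (1.80), so the 10 are not the top of this order. The neighbours of KLK6 in the order were AMPD3 (0.95) and SRD5A3 (0.93).

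**Figure D1:**
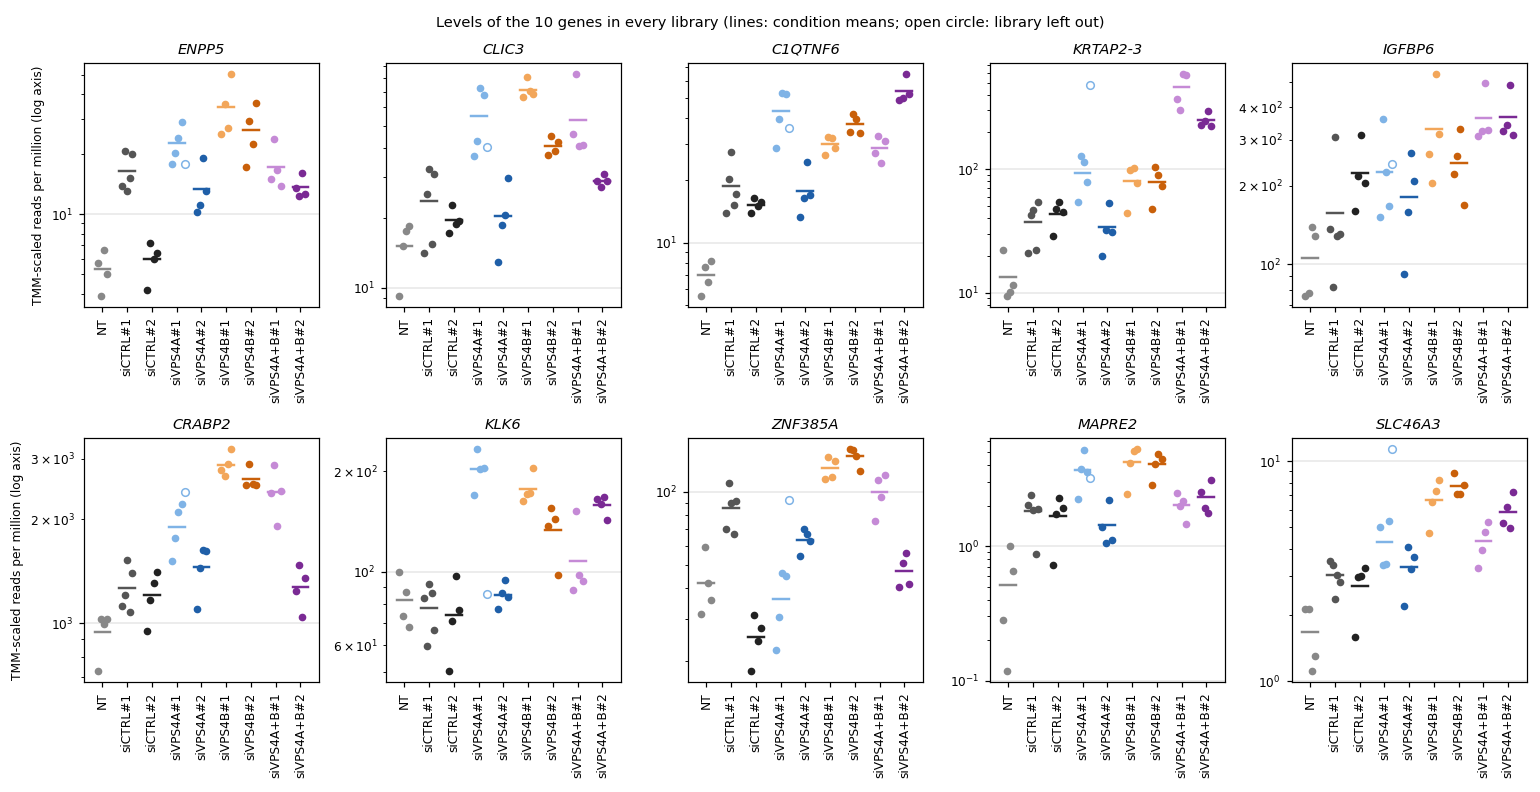
Level of each of the 10 genes (TMM-scaled RPM, log axis) in every library of the 9 conditions, with horizontal lines at condition means and an open circle for the left-out siVPS4A#1 replicate 2. KRTAP2-3 stands apart, with its 8 combined libraries at 225 to 589 and all siVPS4B libraries at 43.9 to 105.

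Several of these genes differed in level between the control conditions. Mean ENPP5 was 5.30 ± 1.13 RPM (SD, n = 4) in NT and 16.6 ± 3.59 (n = 5) with siCTRL#1, but 5.95 ± 1.28 (n = 4) with siCTRL#2. The siCTRL#1 libraries of ENPP5 lay between 13.0 and 20.8 and did not overlap those of NT or siCTRL#2, which overlapped each other. ZNF385A showed the same order of siCTRL#1 over siCTRL#2, with 66.8 to 108 against 18.3 to 31.0, and NT stood between at 31.5 to 59.0. C1QTNF6 was higher than in NT with both control duplexes, at 13.97 to 27.3 with siCTRL#1 and 13.8 to 16.4 with siCTRL#2 against 5.55 to 8.19. At least 1.5-fold and without overlap, siCTRL#1 was above NT for 3 of the 10 genes (ENPP5, C1QTNF6 and ZNF385A; 3.71% of all genes). The log2 difference of siCTRL#1 from NT was also set as a percentage of the mean log2 difference between the VPS4B duplexes and NT. It was 61.3% for ENPP5, 59.5% for C1QTNF6, 57.96% for ZNF385A, 53.8% for KRTAP2-3 and 50.3% for MAPRE2. For the others it was 38.04% for IGFBP6, 35.8% for SLC46A3, 26.8% for CLIC3, 24.3% for CRABP2 and -7.00% for KLK6. CRABP2 and KLK6 were thus the members whose siVPS4B levels differed least in size between the references NT and siCTRL#1. With siCTRL#2, KRTAP2-3 and IGFBP6 were also above NT without overlap, by 1.69 and 1.09 on the log2 scale. IGFBP6 was above siCTRL#2 by 0.51 (0.13 to 0.88) with siVPS4B#1 and 0.13 (-0.25 to 0.51) with siVPS4B#2. KRTAP2-3 was above siCTRL#2 by 0.84 and 0.82, and the libraries of both genes overlapped those of siCTRL#2. For the other members the siVPS4B libraries lay above all siCTRL#2 libraries, and the share of all genes is not given here.

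**Figure D2:**
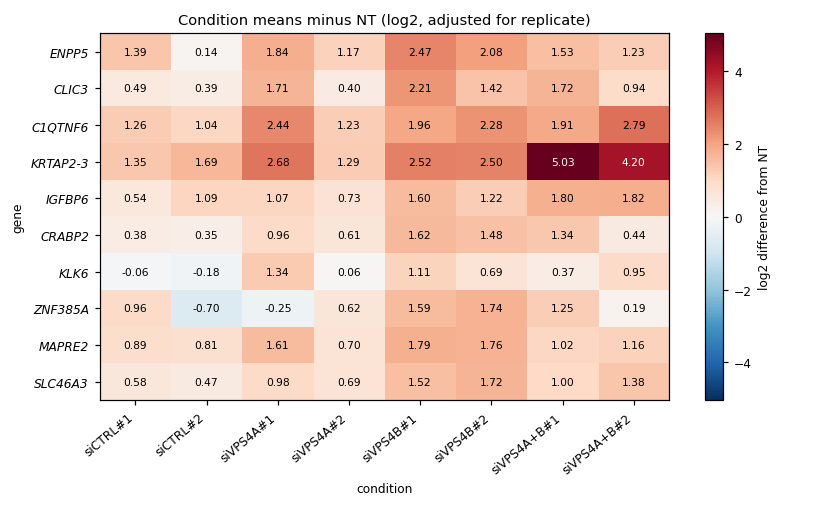
Condition means of the 10 genes minus NT on the log2 scale, adjusted for replicate number, with the value in each cell and the colour scale centred on 0. siCTRL#1 and siCTRL#2 part for ENPP5 (1.39 and 0.14) and ZNF385A (0.96 and -0.70), and KRTAP2-3 reaches 5.03 in siVPS4A+B#1.

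In combined silencing, the 10 genes did not move as a group. Against the same VPS4B duplex alone, KRTAP2-3 was the only member at least 1.5-fold higher without overlap in siVPS4A+B#1 (3.94% of all genes) and again in siVPS4A+B#2 (9.81% of all genes). At least 1.5-fold lower without overlap were ENPP5 and KLK6 in siVPS4A+B#1 (3.23% of all genes) and ENPP5, CRABP2 and ZNF385A in siVPS4A+B#2 (11.0% of all genes). The median difference of the 10 was -0.42 and -0.41 on the log2 scale in the 2 pairs, against -0.00 and -0.02 over all genes. Since the siVPS4B libraries chose the members, chance highs in them lower these differences and their medians. The differences are thus not independent of the choice, and they are given with 95% limma intervals and no test. The tests below use combined silencing against the same VPS4A duplex alone or against siCTRL#2, none of which took part in the choice, and a call needs a 1.5-fold difference and a Benjamini-Hochberg adjusted p of limma under 0.05 over all 12627 genes. Fold changes are on the scale of log2(RPM + 1), which understates changes of the low genes MAPRE2 and SLC46A3.

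**Figure D3:**
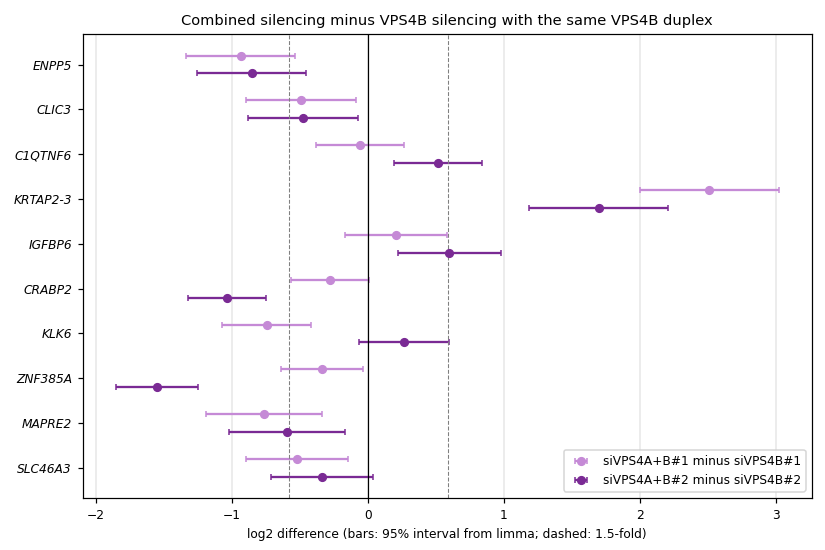
Log2 difference of combined silencing from the same VPS4B duplex alone for the 10 genes (points, with 95% limma intervals as bars; dashed lines at 1.5-fold), siVPS4A+B#1 in light and siVPS4A+B#2 in dark purple. KRTAP2-3 lies at 2.51 and 1.70 and ENPP5 at -0.94 and -0.86, while KLK6 lies at -0.75 and, with an interval that crosses 0, at 0.27.

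When siVPS4B#1 was added to siVPS4A#2, 6 of the 10 genes rose (11.4% of all genes) and 0 fell (12.1% of all genes), the 0 also at an unadjusted p under 0.05 and with edgeR or DESeq2. With library totals in place of TMM, 3 of the 6 stayed called (CLIC3, KRTAP2-3 and IGFBP6), while C1QTNF6 (0.53), CRABP2 (0.577) and ZNF385A (0.48) were under 1.5-fold. When siVPS4B#2 was added to siVPS4A#1, KRTAP2-3 and IGFBP6 rose (8.55% of all genes) and ENPP5 and CLIC3 fell (8.93% of all genes). The median of the 10 was 0.65 in the first pair and -0.01 in the second, against -0.03 and 0.00 over all genes. The first pair's difference minus the second's was itself tested, and it was above 0 for ENPP5, CLIC3, KRTAP2-3, CRABP2 and KLK6 (9.50% of all genes). The pairs differ in the VPS4A duplex and in the VPS4B duplex, which cannot be told apart, and for ENPP5, CLIC3, CRABP2 and KLK6 the estimates of the pairs had opposite signs. VPS4A was itself higher in combined silencing than with the VPS4A duplex alone, at a mean of 19.96 against 7.88 RPM in the first pair and 5.03 against 2.18 in the second, and its part in these differences was not tested.

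**Figure D4:**
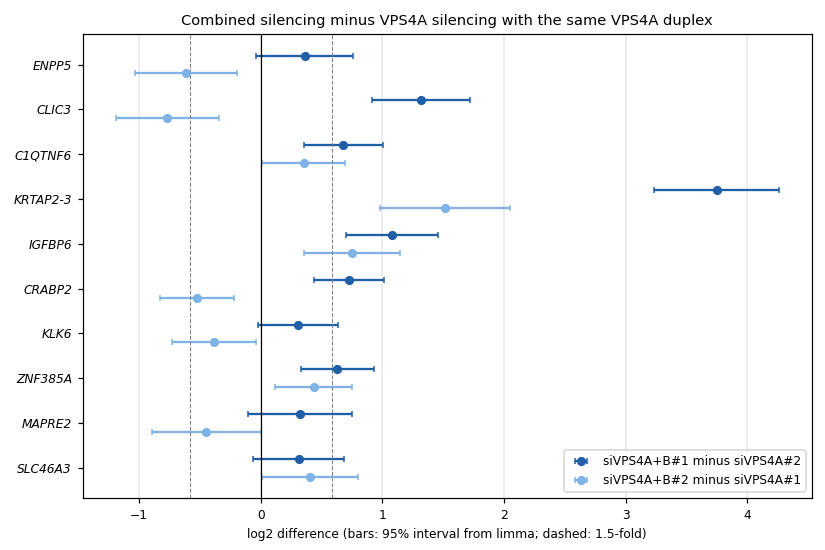
Log2 difference of combined silencing from the same VPS4A duplex alone for the 10 genes (points, with 95% limma intervals as bars; dashed lines at 1.5-fold), siVPS4A+B#1 minus siVPS4A#2 in dark blue and siVPS4A+B#2 minus siVPS4A#1 in light blue. All points of the first pair lie above 0, from 0.30 for KLK6 to 3.75 for KRTAP2-3, and those of the second pair spread from -0.77 for CLIC3 to 1.52 for KRTAP2-3.

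KRTAP2-3, which encodes a keratin-associated protein of the hair fibre, had its highest levels of all conditions in combined silencing. It measured 372, 301, 589 and 581 RPM in siVPS4A+B#1, against 43.9, 98.9, 103 and 77.8 in siVPS4B#1 and 19.7, 31.9, 53.4 and 31.1 in siVPS4A#2. Its levels in siVPS4A+B#2 were 227, 248, 298 and 225, against 47.6, 105, 89.6 and 73.2 in siVPS4B#2 and 54.7, 128, 115 and 78.4 in siVPS4A#1. Every combined library was thus above every library of single silencing. The difference from VPS4B silencing was 2.51 (95% interval 2.00 to 3.02) in the first pair and 1.70 (1.19 to 2.21) in the second. Against VPS4A silencing it rose 13.4-fold (log2 3.75 ± 0.25 SE, adjusted p = 4.18e-15) and 2.87-fold (1.52 ± 0.26, adjusted p = 2.80e-05), and the increases differed by 2.23 ± 0.37 (adjusted p = 1.66e-05). Against siCTRL#2 it rose 10.2-fold in siVPS4A+B#1 (adjusted p = 6.44e-14) and 5.71-fold in siVPS4A+B#2 (adjusted p = 8.39e-11). siVPS4A+B#1 was above siVPS4A+B#2 by 0.83 ± 0.25 (adjusted p = 0.0107), a call that was lost without replicate 3, that is without all libraries of that number (adjusted p = 0.0599), without replicate 4 (adjusted p = 0.0913) and with the left-out library included (adjusted p = 0.0919).

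IGFBP6, a secreted protein that binds insulin-like growth factors and prefers IGF-II, was the other member that rose in both pairs. It measured 309.7, 325, 496 and 327 RPM in siVPS4A+B#1, against 266, 206, 537 and 315 in siVPS4B#1 and 91.7, 158, 268 and 208 in siVPS4A#2. In siVPS4A+B#2 it measured 326, 342, 486 and 314, against 222, 260.0, 330.5 and 169 in siVPS4B#2 and 152, 362, 226 and 167 in siVPS4A#1. Combined libraries overlapped those of VPS4B silencing in both pairs, and the differences were 0.20 (-0.17 to 0.58) and 0.60 (0.22 to 0.97). Against VPS4A silencing it rose by 1.08 ± 0.19 (adjusted p = 1.27e-05, no overlap) and by 0.75 ± 0.20 (adjusted p = 0.00340, libraries overlapping). With library totals the second value was 0.57 and so under 1.5-fold, and without replicate number in the model it was 0.76 with an adjusted p of 0.0718. Its level was 0.71 above siCTRL#2 in siVPS4A+B#1 (adjusted p = 0.00200) and 0.73 above it in siVPS4A+B#2 (adjusted p = 0.00129), and without replicate number in the model these adjusted p were 0.0683 and 0.0546. siVPS4A+B#1 and siVPS4A+B#2 were 364 ± 88.4 and 367 ± 80.0 (SD, n = 4), with a difference of -0.02 (-0.39 to 0.36).

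C1QTNF6, a secreted protein of the C1q and tumour necrosis factor-related family, rose against VPS4A silencing in the first pair. It measured 27.1, 32.6, 24.1 and 31.1 RPM in siVPS4A+B#1, against 26.4, 32.2, 32.1 and 28.7 in siVPS4B#1 and 13.3, 16.5, 24.5 and 17.0 in siVPS4A#2. Its levels in siVPS4A+B#2 were 48.6, 49.7, 65.02 and 52.1, against 34.2, 41.7, 39.4 and 33.9 in siVPS4B#2 and 28.6, 39.5, 52.6 and 52.2 in siVPS4A#1. The first pair was thus level with VPS4B silencing, at -0.06 (-0.38 to 0.26), and the second was above it without overlap, at 0.51 (0.19 to 0.84). Against VPS4A silencing it was higher by 0.68 ± 0.16 in the first pair (adjusted p = 0.000783), while the 0.35 ± 0.17 of the second missed the threshold (adjusted p = 0.115). siVPS4A+B#1 was below siVPS4A+B#2 by 0.88 on the log2 scale, a fall that passed the test (adjusted p = 4.24e-05) and left no overlap.

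KLK6, a secreted trypsin-like serine protease, was below VPS4B silencing in the first pair, and no difference was shown in the second. It measured 88.3, 152, 97.5 and 93.9 RPM in siVPS4A+B#1, against 163, 171, 172 and 205 in siVPS4B#1 and 77.1, 85.9, 94.02 and 83.8 in siVPS4A#2. In siVPS4A+B#2 it measured 166, 159, 167 and 142, against 137, 155, 144 and 97.6 in siVPS4B#2 and 170.1, 233, 204 and 205 in siVPS4A#1. In the first pair all combined libraries were below those of siVPS4B#1, by -0.75 (-1.07 to -0.42), and in the second they overlapped siVPS4B#2 at 0.27 (-0.06 to 0.60). Neither difference from VPS4A silencing was called (0.30 ± 0.16, adjusted p = 0.141, and -0.38 ± 0.17, adjusted p = 0.0917), although the pairs differed by 0.69 ± 0.24 (adjusted p = 0.0330). That difference was lost when any of replicates 2, 3, 4 and 5 was left out (adjusted p from 0.0506 to 0.144) and with the left-out library included (adjusted p = 0.350).

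ENPP5, a membrane-bound member of the ectonucleotide pyrophosphatase and phosphodiesterase family, was lower in combined silencing than with VPS4B silencing in both pairs. It measured 14.97, 23.9, 16.6 and 13.9 RPM in siVPS4A+B#1, against 25.3, 35.7, 27.2 and 50.4 in siVPS4B#1 and 10.2, 11.1, 19.1 and 13.1 in siVPS4A#2. Its levels in siVPS4A+B#2 were 13.5, 12.4, 16.0 and 12.6, against 17.3, 29.3, 22.4 and 36.1 in siVPS4B#2 and 17.8, 20.3, 24.2 and 29.0 in siVPS4A#1. The combined libraries did not overlap those of the VPS4B duplex in either pair, and the differences were -0.94 (-1.34 to -0.54) and -0.86 (-1.26 to -0.45). Set against siCTRL#1, with its 16.6 RPM, combined silencing differed by 0.13 (-0.26 to 0.53) and -0.17 (-0.56 to 0.22). Against siVPS4A#2 the 0.36 ± 0.20 of the first pair was not called (adjusted p = 0.153), and against siVPS4A#1 it fell by 0.61 on the log2 scale (adjusted p = 0.0243). That fall was not called without replicates 1, 2 or 4 (adjusted p from 0.0528 to 0.103) or with the left-out library included (adjusted p = 0.0633). The pairs differed by 0.97 ± 0.29 (adjusted p = 0.0125), which was lost without replicate 2 (adjusted p = 0.149).

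CLIC3, a chloride intracellular channel protein that takes part in the recycling of integrins from late endosomes, showed the largest contrast between the pairs after KRTAP2-3. It measured 46.0, 83.4, 40.7 and 41.3 RPM in siVPS4A+B#1, against 66.5, 80.8, 70.2 and 68.4 in siVPS4B#1 and 12.9, 18.6, 20.52 and 29.8 in siVPS4A#2. In siVPS4A+B#2 it measured 28.8, 27.3, 30.9 and 28.9, against 37.2, 44.9, 38.9 and 42.4 in siVPS4B#2 and 37.1, 42.9, 72.4 and 67.4 in siVPS4A#1. The differences from VPS4B silencing were -0.49 (-0.89 to -0.09), with siVPS4A+B#1 replicate 2 above every siVPS4B#1 library, and -0.48 (-0.88 to -0.08), with no overlap. Against siVPS4A#2 it rose 2.50-fold (1.32 ± 0.20, adjusted p = 1.31e-06), and against siVPS4A#1 it fell by 0.77 on the log2 scale (adjusted p = 0.005001), a fall that without replicate 4 was 0.58 and so under 1.5-fold. The pairs differed by 2.09 ± 0.29 (adjusted p = 1.03e-06).

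SLC46A3, a transporter of the lysosomal membrane, was measured with few reads, from 21 to 79 in the libraries of siVPS4B and combined silencing. It was at 3.27 to 5.28 RPM in siVPS4A+B#1 and 4.73 to 8.19 in siVPS4B#1, and at 4.96 to 7.21 in siVPS4A+B#2 and 7.06 to 8.82 in siVPS4B#2. The libraries overlapped in both pairs, and the differences from VPS4B silencing were -0.53 (-0.90 to -0.15) and -0.34 (-0.71 to 0.04). Neither difference from VPS4A silencing was called (0.31 ± 0.19, adjusted p = 0.192, and 0.40 ± 0.19, adjusted p = 0.122). Against siCTRL#2 it rose in siVPS4A+B#2 (0.91 ± 0.19, adjusted p = 8.84e-05), and in siVPS4A+B#1 its 0.53 ± 0.19 was under 1.5-fold (adjusted p = 0.0197).

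CRABP2, which carries retinoic acid from the cytosol to its nuclear receptors, stayed high in the first pair and was near the level of siCTRL#1 and siCTRL#2 in the second. It measured 2386, 2882, 1909 and 2425 RPM in siVPS4A+B#1, against 2787, 2665, 2889 and 3195 in siVPS4B#1 and 1102, 1448, 1636 and 1620.4 in siVPS4A#2. Its levels in siVPS4A+B#2 were 1244, 1472, 1044 and 1353, against 2518, 2889, 2532 and 2519 in siVPS4B#2 and 1514, 1765, 2095 and 2209.8 in siVPS4A#1. The difference from VPS4B silencing was -0.28 (-0.56 to 0.01) in the first pair, and -1.04 (-1.33 to -0.75) without overlap in the second. Against siVPS4A#2 it rose 1.66-fold (0.73 ± 0.14, adjusted p = 7.93e-05), and against siVPS4A#1 its -0.52 ± 0.15 was just under 1.5-fold (adjusted p = 0.00712). The pairs differed by 1.25 ± 0.21 (adjusted p = 1.73e-05). In siVPS4A+B#2 it differed from siCTRL#2 by 0.08 (-0.20 to 0.37, adjusted p = 0.647). It was 0.44 above NT there, and the NT libraries, at 729 to 1032 RPM, did not overlap.

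ZNF385A, a zinc finger protein that binds RNA and acts with p53, showed the largest negative difference of the 10 from VPS4B silencing. It measured 75.8, 111, 94.97 and 117 RPM in siVPS4A+B#1, against 113, 139, 115 and 134 in siVPS4B#1 and 54.5, 70.2, 66.7 and 62.8 in siVPS4A#2. In siVPS4A+B#2 it measured 40.4, 50.8, 56.0 and 41.5, against 149.5, 148, 140.2 and 122 in siVPS4B#2 and 22.3, 30.5, 46.5 and 45.0 in siVPS4A#1. The differences from VPS4B silencing were -0.34 (-0.64 to -0.04) with overlap and -1.55 (-1.86 to -1.25) without. siVPS4A+B#2 was also below siCTRL#1 without overlap, by -0.78 (-1.07 to -0.48). Against VPS4A silencing it rose in the first pair by 0.63 ± 0.15 (adjusted p = 0.000824), which without replicate 4 was 0.54 and under 1.5-fold, and its 0.44 ± 0.16 in the second (adjusted p = 0.0336) was under 1.5-fold. Against siCTRL#2, the reference in which it was lowest, it rose 3.85-fold in siVPS4A+B#1 (adjusted p = 9.33e-14) and 1.85-fold in siVPS4A+B#2 (adjusted p = 4.33e-06).

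MAPRE2, an end-binding protein of growing microtubules, rested on 1 to 47 reads per library and is the least certain of the 10. It was at 1.47 to 2.49 RPM in siVPS4A+B#1 and 2.44 to 5.25 in siVPS4B#1, and at 1.76 to 3.13 in siVPS4A+B#2 and 2.84 to 4.81 in siVPS4B#2. The libraries overlapped in both pairs, and the differences were -0.77 (-1.19 to -0.34) and -0.60 (-1.03 to -0.17). No difference of combined silencing from VPS4A silencing (0.32 ± 0.21, adjusted p = 0.243, and -0.45 ± 0.22, adjusted p = 0.131) or from siCTRL#2 (0.21 ± 0.21, adjusted p = 0.448, and 0.35 ± 0.21, adjusted p = 0.176) was called.

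VPS4A silencing alone also moved several of these genes, and the duplexes against VPS4A differed from each other. Against siCTRL#2, siVPS4A#1 raised 7 of the 10 (15.3% of all genes), namely ENPP5, CLIC3, C1QTNF6, KRTAP2-3, CRABP2, KLK6 and MAPRE2, whereas siVPS4A#2 raised ENPP5 and ZNF385A (11.1% of all genes). Both depended on the reference: against siCTRL#1, which these wells also received, siVPS4A#2 differed by -0.23 (-0.62 to 0.17) for ENPP5 and by -0.35 (-0.64 to -0.05) for ZNF385A, and siVPS4A#1 by 0.45 (0.06 to 0.83) and -1.21 (-1.50 to -0.92). KLK6 had its highest mean of all conditions with siVPS4A#1, at 203 ± 25.9 RPM (SD, n = 4) against 73.8 ± 19.3 with siCTRL#2, a 2.85-fold rise (adjusted p = 1.63e-09) without overlap. With siVPS4A#2 it was 85.2 ± 6.97, and its difference from siCTRL#2 was 0.24 ± 0.16 (adjusted p = 0.285). ENPP5 rose by 1.70 ± 0.21 with siVPS4A#1 (adjusted p = 1.01e-08) and by 1.03 ± 0.20 with siVPS4A#2 (adjusted p = 9.15e-05), both mixed with siCTRL#1, with which alone ENPP5 was as high as 20.8. Compared directly, siVPS4A#1 was above siVPS4A#2 for ENPP5, CLIC3, C1QTNF6, KRTAP2-3, KLK6 and MAPRE2 (9.92% of all genes) by 0.67 to 1.39, and below it for ZNF385A (12.3% of all genes) by -0.86 ± 0.16 (adjusted p = 2.65e-05). VPS4A itself was lower with siVPS4A#1 (2.18 against 7.88 RPM, -1.45 ± 0.24, adjusted p = 5.37e-06), and its part in these differences was not tested.

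**Figure D5:**
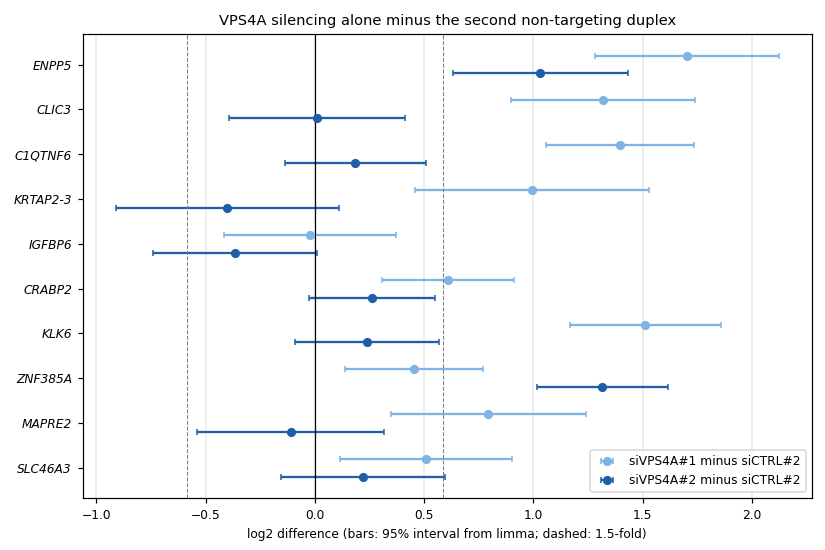
Log2 difference of VPS4A silencing alone from siCTRL#2 for the 10 genes (points, with 95% limma intervals as bars; dashed lines at 1.5-fold), siVPS4A#1 in light and siVPS4A#2 in dark blue. KLK6 lies at 1.51 with siVPS4A#1 and 0.24 with siVPS4A#2, and ZNF385A at 0.45 and 1.32.

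Against siCTRL#2, 7 of the 10 genes rose in siVPS4A+B#1 (15.0% of all genes) and 7 in siVPS4A+B#2 (16.6% of all genes). In either, 0 fell (11.9% and 16.0% of all genes), also at an unadjusted p under 0.05 and with edgeR or DESeq2. Like combined silencing, siCTRL#2 took no part in the choice. ENPP5, C1QTNF6, KRTAP2-3, IGFBP6 and ZNF385A rose in both, CLIC3 and CRABP2 in siVPS4A+B#1, and KLK6 and SLC46A3 in siVPS4A+B#2. For ENPP5 and ZNF385A this depended on the reference, as siCTRL#2 minus siCTRL#1 was -1.26 and -1.66. Against siCTRL#1 they differed by 0.13 (-0.26 to 0.53) and 0.28 (-0.01 to 0.58) in siVPS4A+B#1, and in siVPS4A+B#2 their estimates were below siCTRL#1. Compared with each other, siVPS4A+B#1 was above siVPS4A+B#2 for CLIC3, KRTAP2-3, CRABP2 and ZNF385A (9.92% of all genes) by 0.78 to 1.06, and below it for C1QTNF6 and KLK6 (7.53% of all genes). The KLK6 difference of -0.59 had overlapping libraries and lay at the 1.5-fold threshold, and its call was lost with the left-out library (-0.58), DESeq2 (-0.57), edgeR (-0.56), only 5 conditions (-0.58), and without replicates 1, 3 or 4 (-0.48, -0.52 and -0.58). Without siVPS4A+B#1 replicate 2 and the other libraries of that number, CLIC3 was no longer called (0.52, adjusted p = 0.110). VPS4A stood at 19.96 ± 10.6 RPM in siVPS4A+B#1 and 5.03 ± 1.96 in siVPS4A+B#2 (SD, n = 4), and its part in these differences was not tested.

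Across the 9 condition means, the 45 pairs of members correlated with Pearson's r from 0.21 to 0.92 (median 0.73), a description that the choice of the members favours. The lowest value joined ZNF385A and KLK6 and the highest KRTAP2-3 and IGFBP6. By the same measure over 11149 genes, the transcript most like each member was CDK5 for ENPP5 (0.97), RAB13 for CLIC3 (0.95), CYP4F12 for C1QTNF6 (0.97), SH3RF2 for KRTAP2-3 (0.98), SEC24C for IGFBP6 (0.98), ABCG4 for CRABP2 (0.97), NCDN for KLK6 (0.96), SKAP2 for ZNF385A (0.97), NCKAP5L for MAPRE2 (0.96) and GET3 for SLC46A3 (0.95). With only 9 points and so many candidates, such values describe these conditions alone.

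Relatives of the members were counted in the same tests of an added VPS4B duplex, with the background shares given above. Of 16 listed lysosomal solute transporters, the group of SLC46A3, 7 rose in siVPS4A+B#1 against siVPS4A#2 and 0 fell by limma, edgeR or DESeq2, with 1 lower at an unadjusted p under 0.05 (median 0.55), among them SLC36A1, an amino acid transporter (1.64 ± 0.18, adjusted p = 1.84e-09), SLC17A5, the sialic acid exporter (1.44 ± 0.16, adjusted p = 1.84e-09), and CTNS, the cystine exporter (1.02 ± 0.17, adjusted p = 5.79e-06). In siVPS4A+B#2 against siVPS4A#1, SLC17A5 and SLC36A4 rose and SLC38A7 fell (median 0.04). Of 3 listed relatives of CLIC3, CLIC1 rose in both pairs (1.12 ± 0.15, adjusted p = 1.57e-07, and 0.69 ± 0.16, adjusted p = 0.00109). Of 9 listed genes of the insulin-like growth factor system besides IGFBP6, 2 rose and 2 fell in each pair. IRS2, an adaptor of the insulin and IGF1 receptors, rose in both (1.21 ± 0.20, adjusted p = 6.60e-06, and 1.79 ± 0.21, adjusted p = 1.85e-08). IGFBP3 fell in both, by 1.62 (adjusted p = 5.67e-08) and 1.78 (adjusted p = 5.40e-08) on the log2 scale, opposite to IGFBP6.

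Of 6 listed hair keratins and keratin-associated proteins besides KRTAP2-3, 3 rose in the first pair and 2 in the second, and 0 fell by limma, with 0 and 2 lower at an unadjusted p under 0.05 and 0 and 1 by edgeR or DESeq2. KRTAP3-1 went from a mean of 0.750 to 4.19 RPM (1.44 ± 0.29, adjusted p = 0.000103) and from 7.17 to 41.7 (2.35 ± 0.30, adjusted p = 1.02e-07), while KRTAP2-2 rose in the first pair from 2.09 to 3.95 (adjusted p = 0.0121). In the second pair KRTAP2-2 was lower, at 0.980 against 1.98, and not called (-0.55, adjusted p = 0.0515). KRTAP5-1, called in both pairs, was around the floor, going from 0.0230 to 0.945 and from 0.109 to 1.05. Of 8 listed kallikreins besides KLK6, KLK5 and KLK8 rose in the first pair, and KLK5 and KLK7 fell in the second. Of 14 listed genes of retinoic acid handling besides CRABP2, 2 rose and 2 fell in each pair, with ALDH1A3, a retinoic acid synthesising enzyme, lower in both (-0.74 ± 0.26, adjusted p = 0.0208, and -1.24 ± 0.27, adjusted p = 0.000467). Of 18 listed microtubule plus-end proteins, the group of MAPRE2, 3 rose and 3 fell in the first pair, and 2 rose and 5 fell in the second. Of 4 listed relatives of C1QTNF6, limma called 0 in either pair. C1QTNF2 (-0.51, adjusted p = 0.0296) and C1QTNF3 (-0.57, adjusted p = 0.0238) were lower in the first pair but under 1.5-fold. Both were called by edgeR and DESeq2, and C1QTNF2 was near the floor, at 0.143 against 0.638 RPM. ENPP1, of 3 listed relatives of ENPP5, fell in the second pair (adjusted p = 0.0217), and ZNF385B, the listed relative of ZNF385A, fell in the first (adjusted p = 0.000177).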

How the data were processed

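Per the study's methods, the authors used an Ion AmpliSeq amplicon panel and Ion Proton sequencing, placed reads on the panel's hg19 transcripts and counted them with HTSeq 0.6.0. The deposited values are a signal, namely each gene's share of its library's reads, and 12627 genes were listed. The methods name a minimum of reads across conditions for the authors' own test, and whether it also made this list is not given in the sources used here. Each library's share of 1 read was found as the common step of its values, and reads were recovered by division: all low values, and 99.99% of values printed exactly enough to judge, were whole within 0.1 read. Symbols were matched for 12474 of the RefSeq identifiers.

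Reads were scaled by TMM (factors 0.88 to 1.10, edgeR 4.0.16), and log2(RPM + 1), with RPM the scaled reads per 1000000, was fitted with limma 3.58.1 (R 4.3.3, trend) over 37 libraries, with condition and replicate number as terms. Replicate number equals the batch label. Deviations from condition means correlated at 0.19 within a number (137 pairs of libraries) and -0.06 between numbers (471 pairs). This was uneven, with 0.30 for replicate 1, 0.08 for replicate 2, 0.34 for replicate 3 and 0.015 for replicate 4. P-values were Benjamini-Hochberg adjusted over 12627 genes, and intervals are at 95%. Libraries overlap unless every library of a condition lies beyond every library of the other. On reads simulated for siVPS4A+B#1 against siVPS4A#2, limma called 90% of 100 genes raised 2-fold, 91% of 100 lowered 2-fold and 4 of 12427 unchanged. The changed genes were drawn only from those above a minimum mean of reads, and every gene had the same setting of spread. These shares therefore do not cover genes with few reads, such as MAPRE2, or genes more variable than that setting. DESeq2 1.42.0 and edgeR on recovered reads, DESeq2 size factors, library totals, 0.1 RPM in place of 1, a filter on low counts, the fit without replicate number, the fit on 5 conditions, the left-out library and each left-out replicate number served as alternatives. A level of 3 reads or fewer is near the floor, at most 0.589 RPM in the 37 libraries, and such limits cover counting error only.

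The members, the lists of their relatives and markers, and the tests were chosen with earlier results of these data known. The genes named are the members, the silenced genes, neighbours in the ranking of the choice, the most alike transcripts and called genes of the lists.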

Additional observations from a re-analysis of the deposited data

Results flagged for a closer look

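In 8 of 90 groups of libraries tested, 1 library lay far from the rest of its condition by Dixon's criterion, where chance gives about 1 in 20, or 4.5. IGFBP6 was high in replicate 3 of 3 conditions, at 308 RPM in siCTRL#1, 496 in siVPS4A+B#1 and 486 in siVPS4A+B#2. Replicate 2 of siVPS4A+B#1 was high for CLIC3 (83.4) and KLK6 (152). Replicate 1 of NT was high for KRTAP2-3 (22.1) and low for CRABP2 (729), and replicate 2 of siVPS4B#2 was high for CRABP2 (2889).

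The difference made by the added VPS4B duplex was unlike between the pairs (siVPS4B#1 on siVPS4A#2, and siVPS4B#2 on siVPS4A#1) for 5 of the 10 genes by the limma test of that contrast, and since both duplexes change between the pairs, they cannot be told apart. The first pair's log2 difference minus the second's was 0.97 for ENPP5, 2.09 for CLIC3, 2.23 for KRTAP2-3, 1.25 for CRABP2 and 0.69 for KLK6.

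The left-out library, siVPS4A#1 replicate 2, lay above all 13 control libraries for some of the members. The share of all genes for which this held was not counted, so it is not a result about the members. In that library 3 reads are 4.48 RPM. For those genes it measured 40.5 RPM for CLIC3, 35.6 for C1QTNF6, 477 for KRTAP2-3, 2397 for CRABP2, 3.24 for MAPRE2 and 11.3 for SLC46A3, the last 2 from 2 and 7 reads of 669257. KRTAP2-3, CRABP2 and SLC46A3 were thereby above the other siVPS4A#1 libraries, which reached 128, 2209.8 and 5.38, and ZNF385A was above them as well (92.2 against at most 46.5). KLK6 (85.8 against at least 170.1) was below them, and ENPP5 (17.80) was level with the lowest of them (17.81).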

How the results depend on the processing

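Of 1520 recomputed values of single genes, 1446 were counted as the same, 36 lost a call, 20 gained one and 18 changed sign, all of them uncalled. In the tested comparisons, the same meant the same direction and the same side of the threshold. In the untested comparisons with VPS4B silencing, it meant a shift smaller than the SD of the libraries. There a crossing of 1.5-fold was not counted, and a change of sign only where the main value was at least 1.5-fold. With library totals instead of TMM, which shifted the median of all genes by -0.12 and -0.15 in the 2 pairs against VPS4A silencing, 3 instead of 6 members were called higher in siVPS4A+B#1 against siVPS4A#2, 1 instead of 2 in siVPS4A+B#2 against siVPS4A#1, 5 instead of 3 were at least 1.5-fold lower in siVPS4A+B#1 than in siVPS4B#1, and 1 instead of 2 (with edgeR also 1) higher in siVPS4A+B#2 than in siVPS4B#2. Without the replicate block (the pairing of libraries by number), 1 instead of 2 members was called higher in siVPS4A+B#2 against siVPS4A#1, IGFBP6 being lost. The count called lower in siVPS4A+B#1 against siVPS4A+B#2 was 1 instead of 2 with the left-out library, DESeq2, edgeR or only 5 conditions, KLK6 being lost. Leaving out each replicate number in turn gave 0 to 2 members lower in siVPS4A+B#2 against siVPS4A#1, 1 to 2 lower in siVPS4A+B#1 against siVPS4A+B#2, 3 to 5 in the test between pairs and 1 to 3 at least 1.5-fold higher in siVPS4A+B#2 than in siVPS4B#2.

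Each value counted as a change of sign was uncalled, and the cause was not tested. Against siCTRL#2, IGFBP6 with siVPS4A#1 was -0.02 and turned to 0.089 with the left-out library, 0.0050 with DESeq2 size factors, 0.072 with library totals, 0.015 with DESeq2, 0.057 with 5 conditions, and ranged from -0.14 to 0.084 over left-out replicate numbers. Over the same left-out numbers and against siCTRL#2, MAPRE2 ranged from -0.058 to 0.36 in siVPS4A+B#1 and from -0.31 to 0.0063 in siVPS4A#2, CRABP2 from -0.0057 to 0.24 in siVPS4A+B#2, and CLIC3 from -0.19 to 0.15 in siVPS4A#2. Between the combinations, IGFBP6 ranged from -0.040 to 0.0050 and MAPRE2 from -0.25 to 0.066. In the test between pairs, ZNF385A ranged from -0.11 to 0.39 and SLC46A3 from -0.30 to 0.065, and SLC46A3 was 0.18 with the left-out library. The depth of the left-out library and the few reads of MAPRE2 and SLC46A3 limit those values.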
